A study of Mus musculus with 12 samples.

Results

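The small leucine-rich and large proteoglycan genes are 10 genes of the heart's extracellular matrix: Dcn, Bgn, Aspn, Lum, Fmod, Prelp and Ogn, which encode small leucine-rich proteoglycans, Vcan and Acan, which encode large ones, and Has2, which makes the hyaluronan that the large ones bind. They were chosen by name, with earlier results of these data known. Their counts and medians beside those of all genes are therefore descriptions, not tests, and the same holds for the gene lists further on. All 10 have a row in the deposited tables of 38293 genes. RNA was measured by sequencing of polyadenylated RNA in 12 libraries of mouse left ventricle, in 3 groups of 4. All animals were healthy C57BL/6J mice, so no group carries an infarct or a gene deletion, and all had their chest opened for 2 injections of 10 µl into the heart muscle, with tissue taken 3 days later. The PBS group received phosphate-buffered saline without a drug. The Upy-PEG group received a hydrogel of poly(ethylene glycol) with ureidopyrimidinone groups, without a drug. The Upy-PEG antimiR-195 group received the same hydrogel with antimiR-195, an oligonucleotide against the microRNA miR-195. No group here received antimiR-195 without the hydrogel. The labels do not give age, the part of the ventricle sampled relative to the injection, or whether the libraries are from different mice, so the p-values below measure the spread between these samples, which may be technical.

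Small leucine-rich proteoglycans have a curved core protein of leucine-rich repeats that lies on collagen fibrils and sets their spacing and thickness. Decorin and biglycan carry chondroitin or dermatan sulfate chains, lumican, fibromodulin and PRELP belong to the class that can carry keratan sulfate, and asporin is a close relative of decorin. Released biglycan can also signal through the Toll-like receptors of macrophages. Versican and aggrecan are bottlebrush-like proteoglycans that bind hyaluronan, a long sugar chain with no core protein that hyaluronan synthases extrude from the cell surface. In the heart, fibroblasts are the main source of these molecules, aggrecan is best known from cartilage and valves, and versican and hyaluronan are known from the loose provisional matrix of healing wounds.

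The drug of the third group is directed at miR-195, so the sequences that pair with it come first. The sequence of mouse miR-195a-5p (RefSeq, GRCm38.p6, chr11:70235062-70235082, plus strand) is shown with those of 5 other microRNAs that share its seed, bases 2 to 8, which is in capitals and which recognises target messages.
mmu-miR-195a-5p: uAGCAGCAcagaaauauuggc
mmu-miR-497a-5p: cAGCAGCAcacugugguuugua
mmu-miR-15a-5p: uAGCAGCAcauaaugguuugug
mmu-miR-15b-5p: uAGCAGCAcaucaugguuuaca
mmu-miR-16-5p: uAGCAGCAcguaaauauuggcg
mmu-miR-322-5p: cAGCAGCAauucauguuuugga

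A 7-base match to this seed, TGCTGCT on the strand of the message, was looked for in 1 3′ untranslated region per gene, the longest in GENCODE M21 on GRCm38. Of the 10 genes, Bgn and Has2 hold 1 each, and the other 8 hold none. In Bgn the match starts at base 1088 of 1137 after the stop codon (chrX:73495884-73495890, plus strand). In Has2 it starts at base 127 of 2032 (chr15:56667526-56667532, minus strand). Both are shown in windows of 29 bases on the strand of the message, with the match in capitals, because they are the places in the searched regions where the targeted microRNA could pair through its whole seed. Coding sequence and other transcripts were not searched.
Bgn, chrX:73495873-73495901: gcaagagggagTGCTGCTtatgaggtcag
Has2, chr15:56667515-56667543: agacatatcacTGCTGCTgggacttgaac
Neither match extends to 8 bases with an A after it. Among 20921 genes with a 3′ untranslated region of at least 20 bases, 20.4% hold a 7-base match and 4.06% an 8-base one, so 2 of 10 is close to the share over all genes. A match is a stretch of letters and does not show that the site is used.

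Several measures of the libraries bear on the values that follow. Libraries held 22353241 to 30278621 counts on genes, and 14770 genes passed the filter on low counts and were tested, among them 9 of the 10 genes. Acan did not pass. Upy-PEG antimiR-195 replicates 2 and 3 stood apart on the first principal component (35.1% of the variance) at −60.2 and −40.7, with the others between −8.48 and 33.4. Their counts were also lower for longer genes, with slopes of −0.266 and −0.154 log2 units for each doubling in length where the other 10 libraries had −0.0514 to 0.136. This touches Vcan, the longest of the 10 genes at 14462 bases, more than Dcn at 2084. Values of the 10 genes that moved by over 1.5 times without both libraries are given with them left out. For Ogn between the hydrogel groups, a value near 0, a range over alternatives is given instead. Heart muscle RNA was present: 8 of 8 cardiomyocyte markers were tested, and their summed level was 53710 to 82160 CPM (counts scaled to a common library total with the TMM factors of edgeR) over the 12 libraries. Markers of single heart chambers were not compared.

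Per base of gene length, the 10 genes spanned a wide range, in nearly the same order in each group. The measure is the deposited RPKM, reads scaled by gene length and library total, which allows levels of different genes to be set side by side. In PBS hearts Dcn stood highest at 236 ± 27.4 RPKM (SD, n = 4), above 98.7% of tested genes, followed by Bgn at 91.7 ± 12.7, Ogn at 40.6 ± 3.97 and Lum at 35.6 ± 8.32. Prelp at 14.6 ± 1.37 and Aspn at 13.5 ± 2.38 came next, then Vcan at 1.64 ± 0.424, Fmod at 0.549 ± 0.0958, Has2 at 0.191 ± 0.0692 and Acan at 0.0166 ± 0.0137. The small proteoglycan of the fibril surface, decorin, thus had an RNA level per length far above that of versican, the large proteoglycan. In PBS the ranges of Ogn and Lum overlapped, as did those of Prelp and Aspn, so the order within these pairs is not resolved, while every other neighbour in the order was separated in 4 of 4 libraries. With Upy-PEG the order put Lum (52.0 RPKM) beside Ogn (51.8) and Aspn (27.1) above Prelp (15.6), with overlapping ranges in both pairs. The ranges of Fmod (0.647) and Has2 (0.490) also overlapped. Within Upy-PEG libraries, Aspn was above Prelp and Fmod above Has2 in 4 of 4, and Lum was above Ogn in 1 of 4. With antimiR-195 in the hydrogel, Aspn (19.5 RPKM) was above Prelp (12.8) in 4 of 4 libraries without overlap of ranges.

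**Figure D1:**
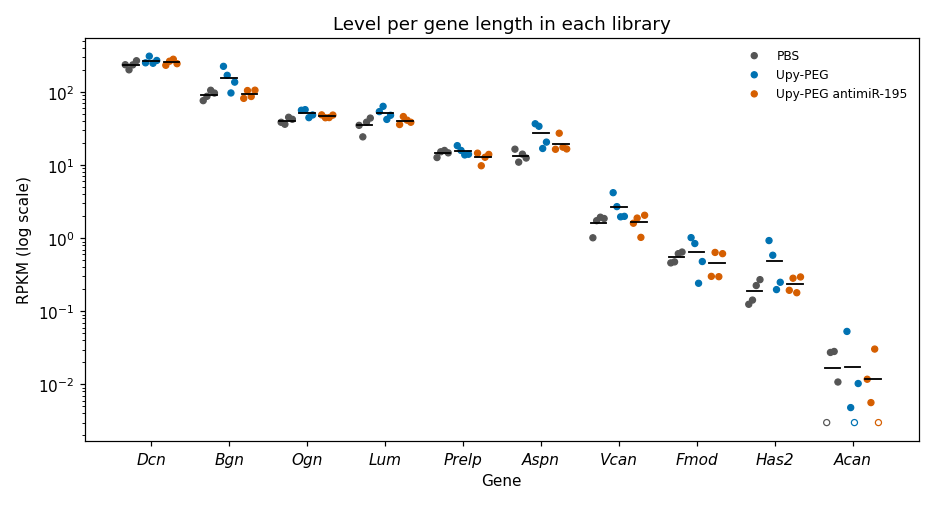
RPKM (log axis) of the 10 genes in each of the 12 libraries, coloured by group, with bars for the mean of 4 libraries and open points at the bottom for libraries with no Acan count. Dcn was highest and Acan lowest in each group, and among genes counted in all 12 libraries the Upy-PEG points of Has2 (0.198 to 0.929) and Fmod (0.242 to 1.02) span the widest ratios.

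Decorin and biglycan are the best studied of the small proteoglycans. Dcn (ENSMUSG00000019929, GRCm38 chromosome 10, 97479609 to 97518143, plus strand) measured 487, 443, 493 and 563 CPM in PBS replicates 1 to 4, 459, 603, 513 and 552 with Upy-PEG, and 520, 572, 641 and 505 with Upy-PEG antimiR-195. The ranges of the 3 groups overlapped for Dcn. Its log2 fold change was 0.10 ± 0.12 (SE, n = 4 per group) for Upy-PEG against PBS (edgeR adjusted p = 0.799), 0.17 ± 0.12 for Upy-PEG antimiR-195 against PBS (adjusted p = 0.435) and 0.07 ± 0.12 between the hydrogel groups (adjusted p = 0.777). Without antimiR-195 replicates 2 and 3 the last 2 values were 0.053 and −0.05.

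Bgn (ENSMUSG00000031375, chromosome X, 73483602 to 73495933, plus strand) measured 268, 329, 379 and 347 CPM in PBS hearts, 702, 564, 344 and 477 with Upy-PEG, and 314, 388, 339 and 374 with Upy-PEG antimiR-195. Upy-PEG replicates 1, 2 and 4 were above every PBS library and above every antimiR-195 library, and replicate 3 lay inside both ranges. The means were 331 ± 46.5 CPM for PBS, 522 ± 151 for Upy-PEG and 354 ± 33.9 for Upy-PEG antimiR-195 (SD, n = 4 each). For Upy-PEG against PBS the log2 fold change was 0.66 ± 0.18, 1.58-fold (SE, edgeR adjusted p = 0.125). Between the hydrogel groups it was −0.56 ± 0.18 with antimiR-195 relative to hydrogel alone (adjusted p = 0.364), and for Upy-PEG antimiR-195 against PBS it was 0.10 ± 0.18 (adjusted p = 0.781). This last value was 0.063 without antimiR-195 replicates 2 and 3, 0.009 without PBS replicate 1 and 0.221 with the gene length slope of each library as a covariate. Neither of the larger differences passed 0.05 after adjustment over all genes in edgeR. In whole tissue, fewer cells of a type and less RNA per cell cannot be told apart, here and below.

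Asporin, the decorin relative that binds collagen and can hold back TGF-beta, had the lowest p of the 9 tested genes in the Upy-PEG comparison with PBS. Aspn (ENSMUSG00000021388, chromosome 13, 49544443 to 49567565, plus strand) measured 38.3, 27.2, 33.3 and 29.5 CPM in PBS hearts, 75.8, 74.5, 39.4 and 47.4 with Upy-PEG, and 41.5, 66.7, 45.2 and 38.7 with Upy-PEG antimiR-195. In TMM-scaled CPM every hydrogel library, with or without the drug, was above every PBS library. The lowest of them, at 38.7 and 39.4, were close to PBS replicate 1 at 38.3. On the deposited RPKM, Aspn in antimiR-195 replicate 1 (16.48) was below PBS replicate 1 (16.54), so those 2 groups overlapped. The log2 fold change was 0.89 ± 0.22 for Upy-PEG against PBS, 1.85-fold (SE, n = 4 per group, edgeR adjusted p = 0.112), and 0.58 ± 0.22 for Upy-PEG antimiR-195 against PBS (adjusted p = 0.267). Without Upy-PEG antimiR-195 replicate 2 the second value was 0.379, and without its replicates 2 and 3 it was 0.328. Between the hydrogel groups it was −0.305 ± 0.22 (adjusted p = 0.507). That difference was −0.167 and −0.178 without Upy-PEG replicate 1 or 2, −0.474 without Upy-PEG replicate 3, −0.517 without antimiR-195 replicate 2 and −0.562 without antimiR-195 replicates 2 and 3.

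Osteoglycin, also called mimecan, is a small proteoglycan whose gene is the neighbour of Aspn, 40480 bases away on the same strand. Ogn (ENSMUSG00000021390, chromosome 13, 49608046 to 49624501) measured 96.7, 97.1, 115 and 108 CPM in PBS hearts, 126, 136, 113 and 121 with Upy-PEG, and 133, 117, 124 and 122 with Upy-PEG antimiR-195. In TMM-scaled CPM the antimiR-195 libraries were all above the PBS libraries, and 3 of the 4 Upy-PEG libraries were. On the deposited RPKM, Ogn in antimiR-195 replicates 2 and 3 (44.5 and 44.8) was below PBS replicate 3 (45.2). Its differences from PBS were small and of like size, a log2 fold change of 0.25 ± 0.10 for Upy-PEG (edgeR adjusted p = 0.271) and 0.25 ± 0.10 for Upy-PEG antimiR-195 (adjusted p = 0.267). Between the hydrogel groups it was 0.004 ± 0.10 (adjusted p = 0.988), and with library size alone in place of TMM this value was −0.152. Over the alternatives other than leaving out 1 library, this value ran from −0.152 to 0.044. Both genes lie inside the span of Cenpp on the other strand, whose exons share 7 bases with those of Aspn and 0 with those of Ogn.

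The promoters of this pair are shown because Aspn and Ogn are neighbours and were the genes of the 10 whose antimiR-195 libraries did not overlap PBS in CPM. On RPKM both overlapped. The choice was made after their values were seen. Each stretch is 300 bases, 250 before the annotated start and 50 after it, on the strand of the gene (RefSeq, GRCm38.p6), and capitals mark matches to the motifs searched.
Aspn, chr13:49544193-49544492: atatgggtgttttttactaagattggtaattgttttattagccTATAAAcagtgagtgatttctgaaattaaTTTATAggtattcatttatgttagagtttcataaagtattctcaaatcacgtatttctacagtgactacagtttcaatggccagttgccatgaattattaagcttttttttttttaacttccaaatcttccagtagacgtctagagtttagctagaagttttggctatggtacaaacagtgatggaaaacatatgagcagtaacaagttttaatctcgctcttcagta
Ogn, chr13:49607765-49608064: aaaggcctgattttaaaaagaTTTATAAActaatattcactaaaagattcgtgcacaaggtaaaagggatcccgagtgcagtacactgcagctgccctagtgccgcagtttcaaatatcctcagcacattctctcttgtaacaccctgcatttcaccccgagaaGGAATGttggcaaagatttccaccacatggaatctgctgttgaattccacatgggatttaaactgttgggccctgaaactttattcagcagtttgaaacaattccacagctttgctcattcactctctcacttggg
The motifs searched on both strands were TGANTCA for AP-1, GGAATG for TEAD factors, CAGAC for SMAD factors and TATAAA for the TATA box. Aspn held 2 matches to the TATA box, with first bases at −207 and −178 relative to the start, and Ogn held 1 TEAD match at −86 and 2 overlapping TATA box matches at −229 and −227. Over 32851 promoters of the same length, 7.81% held the AP-1 motif, 14.7% the TEAD motif, 49.6% the SMAD motif and 13.6% the TATA box. The Aspn promoter was 31.0% G and C and the Ogn promoter 42.3%, against a median of 52.7%. The promoters of Bgn (63.7%) and Vcan (61.0%) held none of these motifs, and those of Fmod and Prelp held SMAD matches. In all, 7 of the 10 genes were matched in this table, and Dcn, Lum and Has2 were not. Matches are descriptions of letters, not of binding.

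Lumican, fibromodulin and PRELP belong to the class that can carry keratan sulfate, and they did not share a pattern. Lum (ENSMUSG00000036446, chromosome 10, 97565128 to 97572703, plus strand), which lies 46984 bases from Dcn, measured 71.7, 53.4, 80.6 and 91.9 CPM in PBS hearts, 98.2, 124, 87.0 and 97.7 with Upy-PEG, and 80.1, 99.7, 93.6 and 79.4 with Upy-PEG antimiR-195. Upy-PEG replicate 3 was below PBS replicate 4, so the groups overlapped through 1 library on each side. Its log2 fold change was 0.45 ± 0.16 for Upy-PEG against PBS (SE, n = 4 per group, edgeR adjusted p = 0.222), 0.245 ± 0.16 for Upy-PEG antimiR-195 against PBS (adjusted p = 0.405) and −0.205 ± 0.16 between the hydrogel groups (adjusted p = 0.533). The second value was 0.115 without PBS replicate 2 and the third −0.099 without Upy-PEG replicate 2, and without antimiR-195 replicates 2 and 3 they were 0.106 and −0.347.

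Fmod (ENSMUSG00000041559, chromosome 1, 134037254 to 134048277, plus strand), which guides early fibril growth, was low in these hearts. It measured 1.5, 1.65, 2.04 and 2.15 CPM with PBS, 2.95, 2.61, 0.794 and 1.55 with Upy-PEG, and 1.07, 2.19, 1.08 and 2.01 with Upy-PEG antimiR-195, from 20 to 95 counts per library. The Upy-PEG group held both the highest and the lowest of the 12 values. Its log2 fold changes were 0.12 ± 0.36 for Upy-PEG against PBS, −0.20 ± 0.37 for Upy-PEG antimiR-195 against PBS and −0.32 ± 0.36 between the hydrogel groups (edgeR adjusted p = 0.927, 0.78 and 0.676). The first of these was −0.131 without Upy-PEG replicate 1 and −0.033 without replicate 2, so its sign is not resolved. The second ran from −0.389 without antimiR-195 replicate 2 to −0.055 without antimiR-195 replicate 1, and the third from −0.589 without Upy-PEG replicate 3 to −0.062 without Upy-PEG replicate 1.

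Prelp (ENSMUSG00000041577, chromosome 1, 133910304 to 133921414, minus strand), whose product anchors basement membranes to connective tissue, measured 45.3, 58.1, 57.7 and 53.5 CPM with PBS, 58.6, 53.7, 49.5 and 49.8 with Upy-PEG, and 56.7, 36.8, 50.6 and 50.2 with Upy-PEG antimiR-195. The groups overlapped throughout, and the lowest value was that of antimiR-195 replicate 2. Its log2 fold changes were −0.02 ± 0.13, −0.14 ± 0.13 and −0.12 ± 0.13 in the order Upy-PEG against PBS, antimiR-195 against PBS and antimiR-195 against Upy-PEG (edgeR adjusted p = 0.968, 0.546 and 0.648). With library size alone the first was 0.089, and with the gene length slope of each library as a covariate the 3 values were 0.021, 0.053 and 0.032. Without antimiR-195 replicate 2 the last 2 were −0.031 and −0.021, and without its replicates 2 and 3 they were 0.0 and 0.015. Prelp shares 350 exon bases with Gm15851 on the other strand, which had 16 counts in all 12 libraries together.

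Versican, the large proteoglycan of provisional matrix, was highest in Upy-PEG replicates 1 and 2. Vcan (ENSMUSG00000021614, chromosome 13, 89655312 to 89742509, minus strand) measured 14.5, 26.5, 28.1 and 27.0 CPM with PBS, 53.2, 36.5, 28.2 and 28.2 with Upy-PEG, and 24.9, 28.4, 16.2 and 29.5 with Upy-PEG antimiR-195. The Upy-PEG and PBS groups did not overlap, but their edges nearly touched, with the lowest Upy-PEG library at 28.17 and the highest PBS library at 28.14. The log2 fold change was 0.61 ± 0.25 for Upy-PEG against PBS (SE, n = 4 per group, edgeR adjusted p = 0.308), a value that was 0.374 without Upy-PEG replicate 1. For Upy-PEG antimiR-195 against PBS it was 0.05 ± 0.25 (adjusted p = 0.932), with a negative sign without PBS replicate 1 (−0.136), 0.189 without antimiR-195 replicates 2 and 3, and 0.339 with the gene length slope of each library as a covariate. Between the hydrogel groups it was −0.56 ± 0.25 (adjusted p = 0.374), −0.324 without Upy-PEG replicate 1, and −0.311 with the same covariate.

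Has2 (ENSMUSG00000022367, chromosome 15, 56665627 to 56694539, minus strand), the hyaluronan synthase of development and wound healing, was low per length and had the largest difference of the 9 tested genes both between Upy-PEG and PBS and between the hydrogel groups. It measured 0.521, 0.636, 0.958 and 1.15 CPM with PBS, 3.45, 2.31, 0.833 and 1.03 with Upy-PEG, and 0.882, 1.25, 0.831 and 1.24 with Upy-PEG antimiR-195, from 15 to 111 counts per library. Upy-PEG replicates 1 and 2 stood above the other 10 libraries, and Upy-PEG replicates 3 and 4 lay within the PBS range. The log2 fold change was 1.24 ± 0.42 for Upy-PEG against PBS (edgeR adjusted p = 0.203), a value that was 0.792 without Upy-PEG replicate 1. Its value between the hydrogel groups was −0.865 ± 0.41 (adjusted p = 0.383) and −0.414 without the same library. For Upy-PEG antimiR-195 against PBS it was 0.375 ± 0.44 (adjusted p = 0.646), 0.199 without PBS replicate 1, 0.589 without PBS replicate 4 and 0.681 with the length covariate, which gave −0.566 between the hydrogel groups. Has2 shares 182 exon bases with its antisense gene Has2os, which had 57 counts over the 12 libraries, and the strand setting of the counting is not given in the sources used here.

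Acan (ENSMUSG00000030607, chromosome 7, 79053483 to 79115099, plus strand), the aggregating proteoglycan of cartilage, was barely detected. It had 0, 5, 5 and 2 counts with PBS, 11, 1, 0 and 2 with Upy-PEG, and 2, 1, 5 and 0 with Upy-PEG antimiR-195, totals of 12, 14 and 8. A library with 0 counts allows up to 3, by counting error alone, so these counts cannot resolve a small difference between groups. No difference was tested for Acan. Of the other cartilage and tendon markers, Col2a1, Matn1, Matn3 and Tnmd had group means of at most 0.038 RPKM, and Matn1 had no count in any PBS library. Scx, a transcription factor gene of tendon, averaged 4.07 RPKM with PBS, Comp 1.496 and Sox9 1.205.

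**Figure D2:**
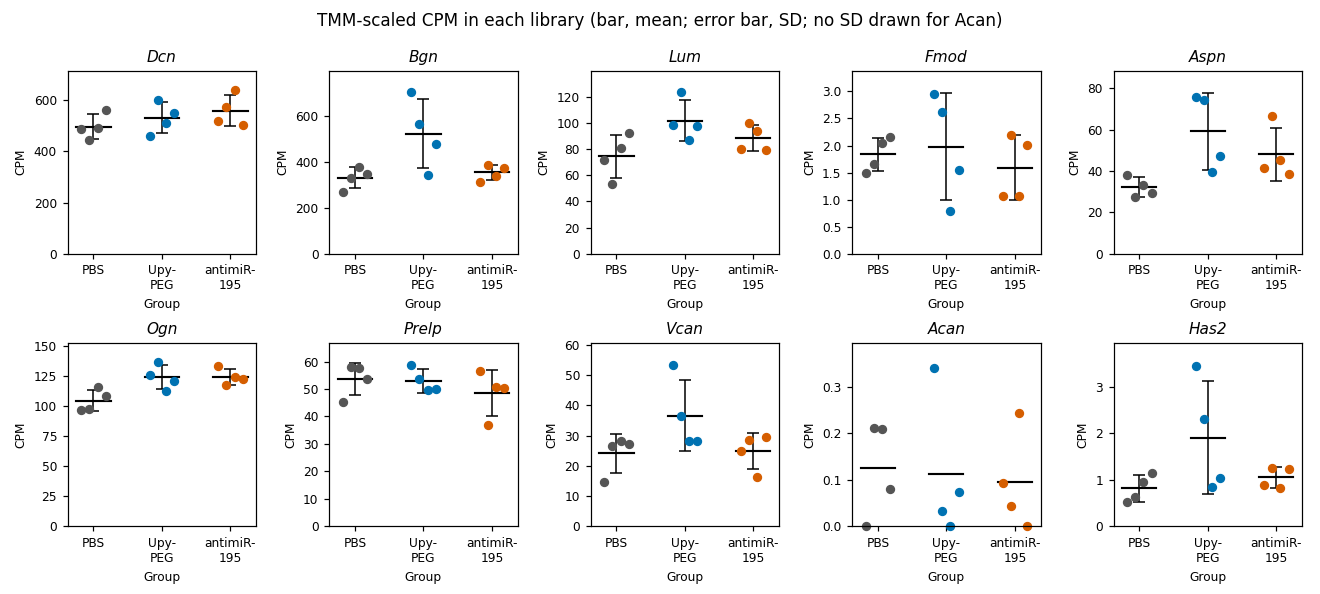
TMM-scaled CPM (linear axes from 0) of each gene in the 4 libraries of each group, with bars for the mean and error bars for the SD, which are not drawn for Acan. The Upy-PEG points of Aspn, Vcan and Has2 are split between high values in replicates 1 and 2 and values nearer to PBS in the others. For Has2 these are 3.45 and 2.31 against 0.833 and 1.03. For Bgn, replicates 1, 2 and 4 (702, 564 and 477) lie above PBS, and replicate 3 (344) lies inside its range.

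Setting Upy-PEG beside PBS asks what is added by the hydrogel to an injection alone. Of the 9 genes tested, 8 had higher means with Upy-PEG and 0 passed an adjusted p of 0.05 in edgeR, as did 0.0% of all 14770 genes. At an unadjusted p under 0.05, 6 were higher (Aspn, Bgn, Has2, Lum, Ogn and Vcan), where 9.33% of all genes were higher and 3.83% lower, and none of the 9 was lower. This count of 6 was 4 without PBS replicate 1 and ran from 4 to 6 leaving out 1 library. The median log2 fold change was 0.45 over the 9 genes and −0.03 over all genes, of which 44.7% were higher. Groups did not overlap for 2 of the 9, Aspn and Vcan, against 5.91% of all genes in that direction and 3.77% in the other. By other tools DESeq2 and limma voom each called 2 of the 9, Aspn (adjusted p = 0.0117 and 0.0158) and Bgn (0.0256 and 0.0378), and they called 505 and 918 of all genes, while limma-trend on RPKM called 0 of either. The gene length covariate and the fit without antimiR-195 replicates 2 and 3 each called Aspn alone (adjusted p = 0.0481 and 0.0402). Leaving out Upy-PEG replicate 3, Bgn passed at an adjusted p of 0.0498. Of the genes at an unadjusted p under 0.05, 70.9% were higher with TMM scaling, 91.7% with library size alone and 53.0% with the covariate. Library size alone moved the median of all genes from −0.028 to 0.073.

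The comparison of Upy-PEG antimiR-195 with PBS asks what the drug-carrying hydrogel adds to the injection, and shares its PBS libraries with the one above. Of the 9 genes, 7 had higher means and 0 passed an adjusted p of 0.05 in edgeR, with 0.0% of all genes. At an unadjusted p under 0.05, 2 were higher, Aspn and Ogn, where 8.65% of all genes were higher and 7.89% lower, and none of the 9 was lower. In CPM the same 2 genes had groups that did not overlap, against 2.74% of all genes higher and 3.32% lower. On the deposited RPKM the groups overlapped for both genes. The median was 0.17 over the 9 genes and 0.007 over all genes, of which 50.8% were higher. DESeq2 called 95 genes and voom 1, none of them among the 9. The count of 2 at an unadjusted p under 0.05 became 1 with library size alone, with the length covariate, without antimiR-195 replicates 2 and 3 together, and without PBS replicate 1, antimiR-195 replicate 1 or antimiR-195 replicate 2. It became 0 on either RPKM scale and without PBS replicate 2. The share of higher genes among those at an unadjusted p under 0.05 was 52.3% with TMM and 33.9% with library size alone.

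The comparison between the hydrogel groups asks what antimiR-195 adds to the hydrogel. Of the 9 genes, 7 had lower means with the drug, the exceptions being Dcn and Ogn, whose signs turned under library size alone (−0.078 and −0.152). In edgeR 0 of the 9 and 0.0% of all genes passed an adjusted p of 0.05. At an unadjusted p under 0.05, 2 of the 9 were lower, Bgn and Vcan, where 6.4% of all genes were lower and 6.67% higher. Groups overlapped for each of the 9, where 1.94% of all genes were higher without overlap and 2.46% lower. The median was −0.305 over the 9 genes and −0.005 over all genes, of which 49.2% were higher. DESeq2 called 13 genes and voom 0, none of them among the 9. The count of 2 was 4 without Upy-PEG replicate 3. It was 1 without Upy-PEG replicate 1 or 2, without antimiR-195 replicate 1 or 3, without PBS replicate 4, with voom and with the covariate. Library size alone moved the median of all genes to −0.156 and the share of higher genes among those at an unadjusted p under 0.05 from 51% to 5.4%, and the covariate gave 41.6%. Bgn and Has2, the genes with a 7-base seed match to miR-195, had values of −0.56 and −0.865 here. Vcan, with no 7-base match but 1 match to the last 6 of the 7 bases, had −0.56. The share of 6-base matches over all genes was not counted. Any part of miR-195 in these log2 fold changes was not tested. Since the difference between the hydrogel groups uses the same Upy-PEG libraries as the difference from PBS, high values in Upy-PEG replicates 1 and 2 enter both, with opposite signs.

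**Figure D3:**
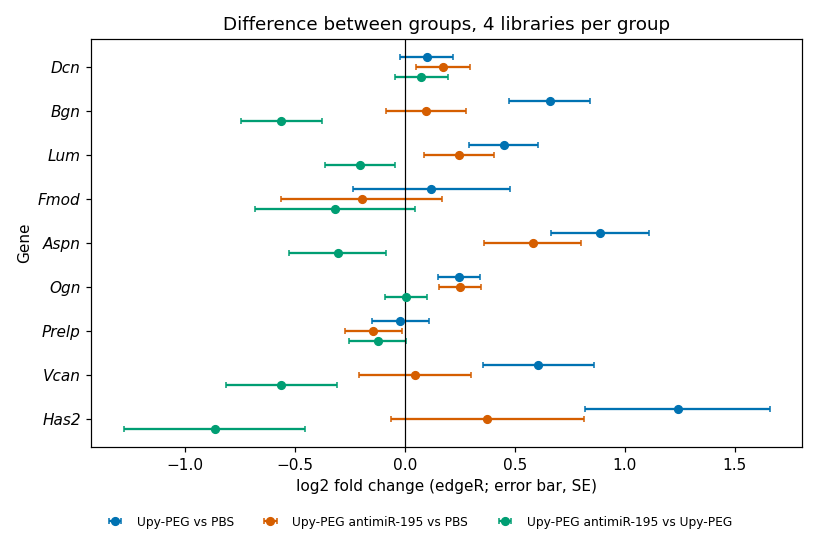
Log2 fold change (edgeR, error bars SE) of the 9 tested genes in the 3 comparisons, with 0 as the line of no difference. Upy-PEG against PBS is to the right of 0 for 8 genes and largest for Has2 at 1.24, and the comparison of antimiR-195 with Upy-PEG lies to the left for 7, while the signs of Prelp (Upy-PEG against PBS), Dcn and Ogn (between the hydrogel groups) turn with library size alone.

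The genes did not vary independently over libraries. Upy-PEG replicates 1 and 2 had 8 and 9 of the 9 tested genes above the gene's mean over the 12 libraries, with median deviations of 0.78 and 0.515 on the log2 CPM scale. Upy-PEG replicates 3 and 4 had 2 and 6 above, with medians of −0.05 and 0.06. Among the PBS libraries 0, 1, 3 and 5 of the 9 were above, and among the antimiR-195 libraries 2, 8, 4 and 4. By these medians, Upy-PEG replicates 1 and 2 were above the overall mean and replicates 3 and 4 near it. Single genes departed from this, as Fmod (−1.021) and Has2 (−0.37) in replicate 3, Bgn (0.297) in replicate 4 and Dcn (−0.197) in replicate 1.

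**Figure D4:**
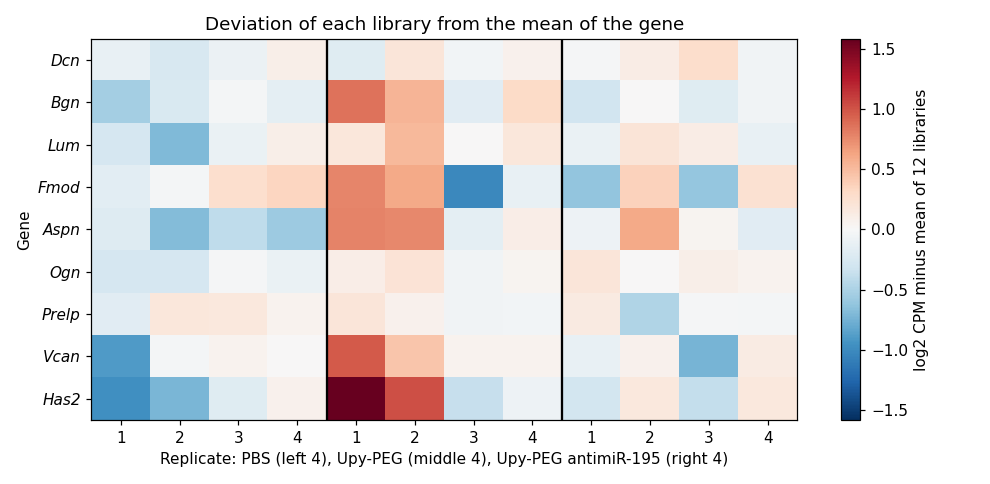
Log2 CPM of the 9 tested genes in each library minus the gene's mean over the 12 libraries, with red above and blue below that mean. Columns for Upy-PEG replicates 1 and 2 are red in 8 and 9 of 9 rows, with Has2 highest in both at 1.58 and 1.02, and the Dcn, Ogn and Prelp rows stay pale.

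Activated fibroblast markers, a list of 7 genes led by Postn, were high in the same libraries. Their summed level was 342 to 425 CPM with PBS, 1381, 932, 516 and 597 in Upy-PEG replicates 1 to 4, and 429.9, 967, 432 and 554 in antimiR-195 replicates 1 to 4. All 7 had higher means with Upy-PEG than with PBS, 4 of them at an unadjusted p under 0.05 (57.1%, against 9.33% of all genes). With antimiR-195, 6 had higher means than with PBS, 3 of them at that threshold (42.9%, against 8.65% of all genes). Relative to Upy-PEG, all 7 had lower means with antimiR-195, 1 of them at that threshold (14.3%, against 6.4% of all genes). The 8 markers of fibroblasts in general summed to 1691 to 1835 CPM with PBS, 1513 to 1754 with Upy-PEG and 1614 to 1734 with antimiR-195, so the groups overlapped. Gsn made up most of that sum, at 1190 ± 99.6 CPM with PBS and 966 ± 153 with Upy-PEG (SD, n = 4 each), and it was the 1 marker of the 8 with a lower mean (−0.30, edgeR adjusted p = 0.332). The other 7 had higher means with Upy-PEG, among them Medag without overlap (0.61, adjusted p = 0.194) and Dpt (0.295, adjusted p = 0.275). The 8 macrophage markers summed to 276 to 398 CPM with PBS, 459 to 609.8 with Upy-PEG and 324 to 620 with antimiR-195. All 8 had higher means with Upy-PEG than with PBS, and all 8 had lower means with antimiR-195 than with Upy-PEG. Over all genes 44.7% were higher with Upy-PEG than with PBS, and 49.2% with antimiR-195 than with Upy-PEG. The 8 cardiomyocyte markers summed to 73300 to 82160 CPM with PBS and 53710, 58710, 70640 and 69120 in the Upy-PEG replicates in order. With antimiR-195 they summed to 71790 to 77330 CPM, above each Upy-PEG library, and with TMM scaling 7 of the 8 had higher means than with Upy-PEG. On the deposited RPKM, Tnnt2, Tnni3, Actc1, Pln and Myl2 had higher means with antimiR-195 than with Upy-PEG. Lower RPKM means were those of Myh6 (3619 against 3936), Ttn (29.8 against 32.2) and Ryr2 (63.75 against 80.88). The part of these cell types in the values of the 10 genes was not tested. The other lists, of endothelial, smooth muscle and pericyte, and epicardial markers, summed to 753 to 913, 972 to 1073 and 4.97 to 9.65 CPM with Upy-PEG, against 817 to 993, 1112 to 1333 and 5.005 to 16.1 with PBS and 651 to 919, 798 to 1123 and 4.87 to 12 with antimiR-195. Of the cartilage and tendon markers 4 of 8 were tested, and the list summed to 11.3 to 15.6, 17.8 to 24.2 and 13.7 to 23.5 CPM with PBS, Upy-PEG and antimiR-195.

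Pairs of genes differed in how far they went together. Over the 12 libraries the Pearson r of log2 CPM was 0.93 for Bgn and Has2, 0.855 for Vcan and Has2, and 0.85 for Bgn and Vcan. After each group's mean was removed these values were 0.92, 0.80 and 0.76, so the pattern was present within groups as well. Bgn and Fmod had 0.64 over all libraries and 0.91 within groups. Dcn, the gene highest in level, had an r of 0.70 with Lum (0.76 within groups), 0.035 with Bgn and −0.25 with Vcan. These are descriptions over libraries that share depth and scaling, and they carry no test.

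Ratios of 2 genes within a library do not depend on how libraries are scaled, and 4 ratios were compared between groups, 12 tests in all. The RPKM ratio of Bgn to Dcn, the 2 small proteoglycans that carry chondroitin or dermatan sulfate, was 0.322, 0.434, 0.4495 and 0.361 with PBS, 0.895, 0.547, 0.3925 and 0.505 with Upy-PEG, and 0.353, 0.397, 0.309 and 0.434 with Upy-PEG antimiR-195. Upy-PEG replicates 1, 2 and 4 were above all other libraries. The difference in mean log2 ratio was 0.52 for Upy-PEG against PBS (2-sided exact permutation test over 70 assignments, p = 0.0857, adjusted p = 0.343 over the 12 tests) and −0.59 between the hydrogel groups (exact p = 0.0857, adjusted p = 0.343). Without Upy-PEG replicate 1 these differences were 0.297 and −0.366. The smallest p this design allows is 0.0286, which for a single ratio adjusts to 0.343 over the 12 tests, so 7 tests at that p were needed for any to pass 0.05.

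The ratio of Aspn to Ogn, neighbours on chromosome 13, was 0.428, 0.303, 0.313 and 0.295 with PBS, 0.653, 0.592, 0.378 and 0.425 with Upy-PEG, and 0.338, 0.614, 0.394 and 0.344 with Upy-PEG antimiR-195. All libraries with the hydrogel were above PBS replicates 2 to 4, and PBS replicate 1 was above 5 of them. Its differences were 0.59 for Upy-PEG against PBS (exact permutation p = 0.0857, adjusted p = 0.343), 0.31 for antimiR-195 against PBS (p = 0.229, adjusted p = 0.343) and −0.29 between the hydrogel groups (p = 0.257, adjusted p = 0.343). The second was 0.112 without antimiR-195 replicate 2 and 0.043 without its replicates 2 and 3. The third was −0.482 and −0.551 under the same omissions, and −0.158 without Upy-PEG replicate 1.

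The ratio of Vcan to Dcn ranged from 0.00428 to 0.00862 with PBS, from 0.00736 to 0.0167 with Upy-PEG and from 0.00365 to 0.00843 with antimiR-195, with differences of 0.50 for Upy-PEG against PBS, −0.12 for antimiR-195 against PBS and −0.62 between the hydrogel groups (exact permutation p = 0.257, 0.657 and 0.114, adjusted p = 0.343, 0.717 and 0.343). The first was 0.238 without Upy-PEG replicate 1 and 0.283 without PBS replicate 1, and the second 0.171 without antimiR-195 replicates 2 and 3. The third was −0.356 without Upy-PEG replicate 1, −0.365 without antimiR-195 replicate 3 and −0.333 without antimiR-195 replicates 2 and 3. The ratio of Fmod to Lum ranged from 0.0131 to 0.0195 with PBS, from 0.00572 to 0.0189 with Upy-PEG and from 0.00721 to 0.0159 with antimiR-195. Its differences in the same order were −0.515, −0.54 and −0.03 (exact permutation p = 0.229, 0.2 and 1.0, adjusted p = 0.343, 0.343 and 1.0). The first was −0.203 without Upy-PEG replicate 3 and −0.777 without Upy-PEG replicate 1, and the second −0.35 without antimiR-195 replicate 3. With so high a bar for passing, the tests say little on whether the make-up of the proteoglycans differed between groups.

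**Figure D5:**
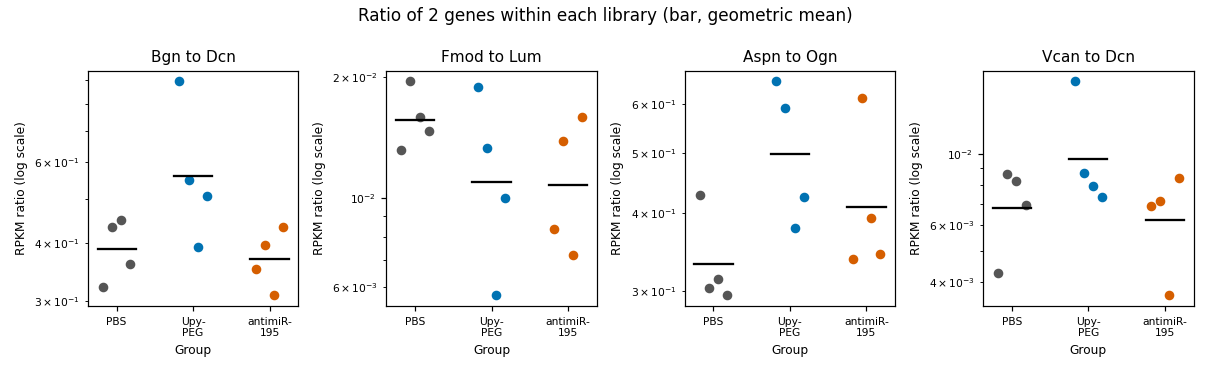
RPKM ratio of 2 genes within each library (log axes), with bars for the geometric mean of 4 libraries. For Bgn to Dcn, Upy-PEG replicates at 0.895, 0.547 and 0.505 lie above all PBS and antimiR-195 libraries, and 1 at 0.3925 lies among them.

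For each tested gene, the 2 other genes closest in pattern over the 12 libraries were found by the Pearson r of log2 CPM among all tested genes. Bgn was closest to Loxl2 (r = 0.97), a lysyl oxidase relative that cross-links collagen, and to Iqgap3 (r = 0.97). Has2 was closest to Edem1 (0.97) and Praf2 (0.965), and Vcan to Pappa (0.98), a protease of insulin-like growth factor binding proteins, and Capza1 (0.965). Aspn was closest to Marcks (0.95) and Depdc1a (0.95), Lum to Cd300lb (0.96) and Hvcn1 (0.94), and Fmod to Dlg4 (0.87) and Fam206a (0.87). Dcn was closest to Hpgd (0.92), which breaks down prostaglandins, and Cyb5a (0.88), Ogn to Lamp2 (0.91) and A730011C13Rik (0.90), and Prelp to Map2k4 (0.955) and Vps26b (0.95). No tested gene was listed as close to more than 1 of the 9. The Spearman rho of these pairs was above r only for the genes listed for Dcn and Bgn. It was lowest for Vcan and Pappa at 0.776 and for Ogn and Lamp2 at 0.79. The highest of nearly 14770 correlations is high in part because it was picked from so many.

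Other small leucine-rich proteoglycans did not share a direction. Of 10 listed, 6 were tested, and with Upy-PEG against PBS 3 were higher and 3 lower, with a median log2 fold change of 0.01 and 1 in each direction at an unadjusted p under 0.05 (16.7% of the 6 each way). Over all genes, for this and the lists that follow, the shares at that threshold were 9.33% higher and 3.83% lower for Upy-PEG against PBS, 8.65% and 7.89% for antimiR-195 against PBS, and 6.67% and 6.4% between the hydrogel groups. Without a threshold, 44.7%, 50.8% and 49.2% of all genes were higher in these comparisons, in the same order. The 2 genes were Tsku, which encodes tsukushi, at 0.73 ± 0.22 (edgeR adjusted p = 0.148), and Podn, which encodes podocan, at −0.36 ± 0.14 (adjusted p = 0.271). Podn was also lower with Upy-PEG antimiR-195 than with PBS, at −0.52 ± 0.14 (adjusted p = 0.253), where Nyx came next at 0.76 ± 0.47 (adjusted p = 0.391). With antimiR-195 relative to Upy-PEG, Chad stood at 1.08 ± 0.39 and Tsku at −0.61 ± 0.22 (adjusted p = 0.364 for both). Omd, next to Ogn at a distance of 15223 bases, stood at −0.10 ± 0.24 for Upy-PEG against PBS (adjusted p = 0.907). No gene of this or any of the lists that follow passed an adjusted p of 0.05 in edgeR.

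Among other proteoglycan core proteins, 14 of 18 were tested, and 7 were higher and 7 lower with Upy-PEG against PBS (median −0.006). At an unadjusted p under 0.05, 1 was higher (7.14% of the 14, against 9.33% of all genes), the cell surface proteoglycan gene Sdc1 at 0.64 ± 0.27 (edgeR adjusted p = 0.318), and Gpc6 followed at 0.30 ± 0.15 (adjusted p = 0.405). With Upy-PEG antimiR-195 against PBS 1 was higher and 3 lower at that threshold, with the basement membrane genes Agrn at −0.555 ± 0.19 (adjusted p = 0.253) and Hspg2 at −0.56 ± 0.23 (adjusted p = 0.273) lowest in p. Relative to Upy-PEG alone, 3 were lower with antimiR-195, among them Sdc3 at −0.51 ± 0.16 and Prg4 at −0.51 ± 0.19 (adjusted p = 0.364 for both).

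Genes of hyaluronan synthesis, binding and turnover were 17, of which 12 were tested. With Upy-PEG against PBS 8 were higher, 3 of them at an unadjusted p under 0.05, with a median of 0.19. Cd44, the main hyaluronan receptor, averaged 28.9 ± 7.88 CPM with Upy-PEG against 17.3 ± 3.83 with PBS (SD, n = 4 each). Its log2 fold change was 0.74 ± 0.21 (edgeR adjusted p = 0.133). Cemip, which takes part in hyaluronan breakdown, stood at 2.82 ± 0.84 (adjusted p = 0.148) with a mean of 3.26 ± 4.76 CPM with Upy-PEG, an SD above the mean. With Upy-PEG antimiR-195 against PBS 2 were lower at that threshold, Has3 at −0.765 ± 0.30 (adjusted p = 0.272) and Lyve1, a receptor of lymphatic vessels and some macrophages, at −0.56 ± 0.26 (adjusted p = 0.301). In the comparison of antimiR-195 with Upy-PEG, 11 of 12 were lower, 3 at that threshold, with Hmmr at −0.91 ± 0.34 (adjusted p = 0.364) and Cemip2 at −0.36 ± 0.16 (adjusted p = 0.37).

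Enzymes that build and sulfate the sugar chains were 27, of which 26 were tested. With Upy-PEG against PBS 21 were higher, where 44.7% of all genes were, with a median of 0.18. At an unadjusted p under 0.05, 5 were higher (19.2% of the 26, against 9.33% of all genes) and 1 was lower (3.85%, against 3.83%). Dse, the epimerase that turns chondroitin into dermatan sulfate, the chain type of decorin and biglycan, averaged 18.4 ± 3.01 CPM with Upy-PEG against 11.65 ± 1.87 with PBS without overlap (log2 fold change 0.66 ± 0.15, edgeR adjusted p = 0.0971). The sulfotransferase gene Chst12 stood at 0.47 ± 0.18 (adjusted p = 0.251). With Upy-PEG antimiR-195 against PBS the median was −0.02, and Papss2, which makes the sulfate donor, stood at −0.33 ± 0.14 (adjusted p = 0.276) and Chst15 at −0.36 ± 0.15 (adjusted p = 0.281). With the drug relative to hydrogel alone, 20 of 26 were lower, 5 at that threshold, with Chpf2 at −0.50 ± 0.14 and Chst11 at −0.90 ± 0.28 (adjusted p = 0.364 for both).

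Proteases that cut proteoglycans were 13, all tested. With Upy-PEG against PBS 11 were higher, 3 at an unadjusted p under 0.05, with a median of 0.20. Mmp14, a membrane-bound matrix protease, averaged 75.5 ± 30.4 CPM with Upy-PEG against 31.9 ± 7.23 with PBS without overlap (log2 fold change 1.24 ± 0.28, edgeR adjusted p = 0.0971), and the aggrecanase and versicanase gene Adamts4 stood at 1.61 ± 0.48 (adjusted p = 0.148). With Upy-PEG antimiR-195 against PBS the median was −0.01, with Adamts1 at −0.44 ± 0.195 (adjusted p = 0.289) and Mmp14 at 0.60 ± 0.28 (adjusted p = 0.302). Of the 13, 12 were lower with antimiR-195 than with Upy-PEG, 4 at that threshold, with Bmp1, which trims the propeptide of biglycan, at −0.53 ± 0.16 and Adamts4 at −1.45 ± 0.48 (adjusted p = 0.364 for both).

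Receptors and ligands that small proteoglycans bind were 15, all tested. With Upy-PEG against PBS 13 were higher, 7 at an unadjusted p under 0.05, with a median of 0.30. P2rx4, an ATP-gated channel linked to biglycan signalling, averaged 32.0 ± 2.47 CPM with Upy-PEG against 24.5 ± 1.24 with PBS without overlap (log2 fold change 0.39 ± 0.09, edgeR adjusted p = 0.0986), and the matricellular ligand gene Ccn4 stood at 1.55 ± 0.42 (adjusted p = 0.116). Tlr2, a receptor of released biglycan, measured 8.76 ± 1.03 CPM with Upy-PEG antimiR-195 and 6.61 ± 1.01 with PBS (0.40 ± 0.16, adjusted p = 0.269), and Lrp1, a decorin receptor, stood at −0.52 ± 0.16 in that comparison (adjusted p = 0.253). Relative to Upy-PEG, 13 of 15 were lower with antimiR-195, 6 at that threshold, with Lrp1 at −0.62 ± 0.16 and P2rx4 at −0.26 ± 0.09 (adjusted p = 0.364 for both).

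Collagens and fibril partners, the molecules that the small proteoglycans coat, had the medians farthest from 0 of the 7 pathway lists for Upy-PEG against PBS and between the hydrogel groups, though not for antimiR-195 against PBS. For Upy-PEG against PBS the marker lists of activated fibroblasts (1.11) and macrophages (0.79) had medians farther from 0. Of 17 listed, 16 were tested, and with Upy-PEG against PBS 15 were higher, 12 at an unadjusted p under 0.05, and 1 was lower at that threshold, with a median of 0.70. Tnc, a matricellular protein of wounds, stood at 1.815 ± 0.50 (edgeR adjusted p = 0.123) and Col5a2, a regulator of fibril width, at 0.99 ± 0.28 (adjusted p = 0.13). With Upy-PEG antimiR-195 against PBS the median was −0.09, and 1 gene was at an unadjusted p under 0.05, Tnxb at −0.54 ± 0.14 (adjusted p = 0.253), followed by Tnc at 0.79 ± 0.49 (adjusted p = 0.392). With antimiR-195, 16 of 16 were lower than with Upy-PEG, 12 at that threshold, with a median of −0.71 and Col1a1 at −1.225 ± 0.28 and Col5a1 at −0.98 ± 0.24 (adjusted p = 0.364 for both). Beside these, the 7 small proteoglycans among the 10 genes ranged from −0.02 for Prelp to 0.89 for Aspn with Upy-PEG against PBS, and from −0.56 for Bgn to 0.07 for Dcn between the hydrogel groups.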

How the data were processed

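The 10 genes and all gene lists were chosen with earlier results of these data known. Per the submitters' processing notes, the authors aligned reads with STAR to GRCm38, counted reads per gene with HTSeq and used DESeq; versions, the annotation and the strand setting are not given in the sources used here. Per the labels, libraries came from a stranded TruSeq mRNA kit. The deposited counts are whole reads per gene, and the deposited RPKM are the authors' reads scaled by gene length and library total. The series count table equalled the per-sample files in 459516 of 459516 cells. Reads on no gene, 6.25% to 8.77% of a library, were left out.

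Counts of all 12 libraries were tested with edgeR 4.0.16 (R 4.3.3, limma 3.58.1): filterByExpr, TMM, estimateDisp, glmQLFit and glmQLFTest on group means, with p-values adjusted by Benjamini-Hochberg over 14770 genes and called under 0.05. An SE is the log2 fold change divided by the square root of F. CPM are TMM-scaled counts, with 2 as the prior count of log2 CPM. Log2 RPKM ratios were compared with 2-sided exact permutation tests, adjusted over 12 tests. All 10 genes were named, as were the 2 genes of each pathway list with the lowest p in each comparison and the 2 genes most like each tested gene; Omd, a neighbour of Ogn, was added after its value was seen. Symbols and positions came from GENCODE M21. Alternatives were RLE factors, library size alone, DESeq2 1.42.0, voom (weighted samples), no filter or a mean CPM of 1 as the filter, limma-trend on log2(RPKM + 0.1) and log2(RPKM + 1), the 8 libraries compared alone, a gene length covariate, leaving out libraries, and an adjusted p under 0.10. Counts at an unadjusted p were added after the data were seen. The edgeR step was tested on simulated counts.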

Additional observations from a re-analysis of the deposited data

Results flagged for a closer look

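A gap test for a library far from the other 3 of its group, comparing its gap to the range at Dixon's 95% critical value, was applied to 42 groups of 4 values (CPM of the genes and the 4 ratios) and marked 3. Chance marks about 1 in 20 groups. Vcan in PBS replicate 1 was at 14.5 CPM, with the other PBS libraries between 26.5 and 28.1. The RPKM ratio of Aspn to Ogn in PBS replicate 1 was 0.428, with the others between 0.295 and 0.313. The RPKM ratio of Vcan to Dcn in Upy-PEG replicate 1 was 0.0167, with the others between 0.00736 and 0.00874. The first lowers the PBS mean of Vcan: without PBS replicate 1, Vcan for Upy-PEG antimiR-195 against PBS went from 0.046 to −0.136. For Upy-PEG against PBS the value of Vcan, 0.607, ran from 0.374 to 0.728 leaving out 1 library. In that comparison the log2 ratio of Vcan to Dcn went from 0.504 to 0.283 without PBS replicate 1. What sets these libraries apart was not tested.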

How the results depend on the processing

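No paired analysis was possible because replicate numbers follow the order of deposition and the labels name no pairs. Of 621 alternative values of the members' fold changes (27 values, 23 alternatives each), 580 kept their sign and their side of the threshold, 7 passed 0.05 with the same sign and 34 changed sign. Genes called, 0 in edgeR in each comparison, were, for Upy-PEG against PBS, 69 with no filter, 505 in DESeq2, 918 in voom, 172 from the 8 libraries alone, 343 with the length covariate, 349 without antimiR-195 replicates 2 and 3, 155 at an adjusted p under 0.10, and 0 to 150 leaving out 1 library (150 without antimiR-195 replicate 2 and 46 without Upy-PEG replicate 3). For antimiR-195 against PBS they were 1 with no filter, 95 in DESeq2 and 1 in voom, and between the hydrogel groups 13 in DESeq2. Members called for Upy-PEG against PBS, 0 in edgeR, were 2 in DESeq2, 2 in voom, 1 with the covariate, 1 without antimiR-195 replicates 2 and 3, and 0 to 1 leaving out 1 library. Members at an unadjusted p under 0.05 for Upy-PEG against PBS, 6 in edgeR, were 4 to 6 leaving out 1 library and 6 in the other alternatives. Members at an unadjusted p under 0.05 for antimiR-195 against PBS, 2 in edgeR, were 1 with library size alone, 0 and 0 on log2(RPKM + 0.1) and log2(RPKM + 1), 1 with the covariate, 1 without antimiR-195 replicates 2 and 3, and 0 to 3 leaving out 1 library. Between the hydrogel groups, 2 in edgeR, they were 1 in voom, 1 with the covariate, and 1 to 4 leaving out 1 library.

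Signs changed for small differences. With library size alone, Dcn was −0.078 and Ogn −0.152 between the hydrogel groups, and Prelp 0.089 for Upy-PEG against PBS. On log2(RPKM + 0.1) these were −0.076, −0.145 and 0.083, and on log2(RPKM + 1) −0.076, −0.142 and 0.079. With voom, Bgn and Vcan were −0.031 and −0.076 for antimiR-195 against PBS, Fmod −0.018 for Upy-PEG against PBS and Dcn −0.04 between the hydrogel groups. With no filter Ogn was −0.013 between the hydrogel groups. With the covariate Prelp was 0.021, 0.053 and 0.032 in the 3 comparisons and Dcn −0.023 between the hydrogel groups. Without antimiR-195 replicates 2 and 3, Dcn was −0.05 and Prelp 0.015 between the hydrogel groups, the log2 ratio of Bgn to Dcn was 0.011 and that of Vcan to Dcn 0.171 for antimiR-195 against PBS, and that of Fmod to Lum 0.077 between the hydrogel groups, where a pseudocount of 0.1 RPKM gave 0.02. Leaving out 1 library, values ran from −0.006 to 0.137 for Dcn and −0.053 to 0.051 for Ogn between the hydrogel groups, −0.131 to 0.39 for Fmod and −0.093 to 0.024 for Prelp for Upy-PEG against PBS, −0.136 to 0.201 for Vcan for antimiR-195 against PBS, −0.158 to 0.018 for Bgn to Dcn and −0.339 to 0.139 for Vcan to Dcn in the same comparison, and −0.338 to 0.236 for Fmod to Lum between the hydrogel groups. The cause was not tested. Depth limits Acan, Has2 and Fmod, with 0 to 11, 15 to 111 and 20 to 95 counts per library.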
